A study of Mus musculus with 6 samples.

Results

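The genes described here are 10 genes of the contractile apparatus and surface of smooth muscle cells and pericytes, the mural cells that wrap vessels: Acta2, Myh11, Myl9, Tagln, Cnn1, Cnn2, Smtn, Lmod1, Rgs5 and Cspg4. They were chosen by name as rows of the deposited count table, and all 10 were found among its 17830 genes. All 10 also passed the filter on low counts, and their counts per library ran from 13 for Rgs5 to 30189 for Acta2. Bulk RNA sequencing was done on 6 libraries of cultured skull bone osteoblasts from mice aged 6 months. Control mice carried mOCN-Cre and Ai9, and APPswe mice carried TgAPPswe in addition (labelled TgAPPswemOCN-Cre;Ai9), with 3 libraries in each group. mOCN-Cre is Cre inserted at the end of the endogenous osteocalcin gene Bglap, Ai9 is a tdTomato reporter switched on by Cre, and the transgene expresses human APP with the Swedish mutation after Cre removes a stop cassette. Both groups therefore share the Cre and the reporter. Cells grew out of calvarial bone chips and were sorted for tdTomato before RNA extraction. The labels do not say whether the libraries of a group come from separate mice or cultures, so the p-values measure only the spread between these libraries, which may be technical.

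In smooth muscle, filaments of the actin Acta2 slide past thick filaments of the myosin Myh11, and contraction starts when the myosin light chain Myl9 is phosphorylated. Transgelin (Tagln), calponins (Cnn1 and Cnn2), smoothelin (Smtn) and leiomodin (Lmod1) bind actin along the filament. Striated muscle uses other genes of the same families, among them the actins Acta1 and Actc1. Stromal cells and myofibroblasts in culture also make Acta2 and Tagln, and bone holds both stromal cells and vessels with mural cells.

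The control libraries held 17649704 to 18398392 counts and the APPswe libraries 17263757 to 17555489, so that 3 counts, taken as the floor of detection for counting error only, were 0.167 to 0.173 CPM (counts relative to the TMM-scaled size of each library). Mouse App averaged 1119 CPM (SD 154, n = 3) in the control libraries and 1037 CPM (SD 19.2, n = 3) with the transgene, whose own reads were not analysed here. Control replicate 2 stood apart from the other libraries. It held 2 counts over 4 Y-linked genes, against 2257 to 3406 in the others, although the study used male mice. It held 1 count of Bglap against 115 to 204, and 8 of 12 osteoblast markers were lowest there. The other 4 (Runx2, Col1a1, Col1a2 and Sparc) were higher than in both other controls, and since the collagens dominate, the sum over the 12 was highest there, at 14397 CPM against 11079 to 13670 CPM. Results that rest on the controls are therefore given with and without this library.

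Promoter sequence was taken from RefSeq for GRCm38.p6, over the 250 bases before the start that its promoter table gives each gene, for 8 of the 10 genes. Myh11 and Tagln had no entry. These windows are shown because serum response factor, which drives both smooth and striated contractile genes, binds the CArG box, a 10-base motif named here without its letters because it needs ambiguous bases. A CArG-like match carries a single G or C inside its A and T core. Capitals mark the match, and sequences are given in the direction of the gene.

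Acta2, CArG-like, minus strand, chr19:34255438-34255467: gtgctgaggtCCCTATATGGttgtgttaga
Acta2, CArG-like, minus strand, chr19:34255388-34255417: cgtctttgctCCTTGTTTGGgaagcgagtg
Myl9, CArG box, plus strand, chr2:156775293-156775322: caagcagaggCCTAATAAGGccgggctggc
Myl9, CArG-like, plus strand, chr2:156775355-156775384: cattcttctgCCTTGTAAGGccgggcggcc
Cnn2, CArG box, plus strand, chr10:79988534-79988563: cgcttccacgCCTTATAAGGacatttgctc
Acta1, CArG box, minus strand, chr8:123894829-123894858: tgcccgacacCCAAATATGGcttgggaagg
Actc1, CArG box, minus strand, chr2:114052903-114052932: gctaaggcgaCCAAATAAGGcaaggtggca

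Counted from the start in that table, the Acta2 matches begin 84 and 34 bases before it, those of Myl9 161 and 99 bases, and that of Cnn2 56 bases. The table's start lies 212 bases inside the full RefSeq span of Acta2, 56 bases inside that of Myl9 and 32 bases inside that of Cnn1, and at the end of the span for the other genes. Both Acta2 matches therefore lie within the gene, in bases that GENCODE annotates as exon of Acta2, while those of Myl9 and Cnn2 lie outside their genes. The CArG box of the striated actin genes starts 73 bases before Acta1 and 47 bases before Actc1. CArG-like matches, whose sequences are not shown, start 205 and 154 bases before Acta1 and 175, 138 and 87 bases before Actc1. CATTCC starts 46 bases before Acta1. A CArG box was found in 2 of the 8 genes with an entry and in 1.4% of the windows of 27018 genes, and a CArG box or a CArG-like match in 3 of 8 and in 8.64% of all windows. The core of the MCAT motif, CATTCC, searched on both strands, was found in 3 of 8 (Acta2, Smtn and Lmod1) and in 12.6% of all windows. None of these motifs was found in the windows of Cnn1, Rgs5 and Cspg4. A match is a description of letters and not a bound site.

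The label of smooth muscle and pericyte cells was checked first, on the length-corrected FPKM scale of the deposited table. Acta2 averaged 618 ± 391 FPKM (SD, n = 3) in control and 1060 ± 36.7 FPKM (SD, n = 3) in APPswe libraries, and ranked 168 and 110 among all genes in level. Tagln followed with 310 and 607 FPKM. The myosin that pairs with Acta2 in mature smooth muscle, Myh11, averaged only 1.26 and 0.94 FPKM, and Myocd, the coactivator of the smooth muscle programme, was at 0.057 and 0.047 FPKM. The 18 other pericyte genes were mixed: some, among them Kcnj8 and Higd1b, averaged under 0.1 FPKM in both groups, with at most 3 counts of the potassium channel gene Kcnj8 in any library and 0 of Higd1b. By contrast, 5 (Pdgfrb, Ndufa4l2, Notch3, Anpep and Ebf1) were at 1 FPKM or more in every library. Pdgfrb, a receptor shared by pericytes and stromal cells, averaged 48.3 and 47.3 FPKM, and Ndufa4l2 was at 171, 3.03 and 197 FPKM in control replicates 1, 2 and 3. The markers thus do not settle whether the libraries held mural cells, and the genes are called here by name.

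On the FPKM scale the order of levels in control libraries was Acta2, Tagln, Cnn2 (182), Myl9 (178), Cnn1 (16.8), Smtn (13.9), Cspg4 (5.22), Lmod1 (4.15), Rgs5 (1.42) and Myh11 (1.26). In APPswe libraries the order was Acta2, Tagln, Myl9 (346), Cnn2 (250), Cnn1 (51.4), Smtn (19.0), Lmod1 (6.28), Cspg4 (3.49), Rgs5 (1.20) and Myh11 (0.94). In control the order of Cnn2 and Myl9 was reversed in replicate 3. Within the other neighbouring pairs, replicates 1 and 3 shared an order that only replicate 2 reversed. In those libraries Smtn was above Cnn1, Cspg4 above Lmod1 and Rgs5 above Myh11. The order of these neighbours in the control means thus depends on the library.

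Different patterns were seen across the libraries. The 7 genes Acta2, Tagln, Cnn1, Cnn2, Myl9, Lmod1 and Smtn were higher in every APPswe library than in every control library, whereas Myh11, Rgs5 and Cspg4 were highest in control replicates 1 and 3 and lowest in control replicate 2. Groups that do not overlap, with APPswe higher, were seen for 7 of the 10 genes and for 22.8% of all genes tested, and with APPswe lower for 0 of 10 and 22.2%. With edgeR's quasi-likelihood test over all 6 libraries, Cnn1 was the 1 gene called higher, with the call rule set at 0.05 for the adjusted p and 1 for the size of the log2 fold change, which 3.74% of all genes passed upward. None of the 10 was called lower, against 3.60% of all genes. By adjusted p alone, 3 of the 10 passed upward (Tagln, Cnn1 and Myl9) against 10.5% of all genes, and none passed downward against 12.0%. At an unadjusted p under 0.05 the numbers were 7 upward and 1 downward, against 17.8% and 19.4% of all genes. DESeq2 passed 7 upward and 0 downward by adjusted p, against 10.3% and 13.6% of all genes.

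Without control replicate 2, 4 of the 10 were called higher (Acta2, Tagln, Cnn1 and Myl9) and 0 lower, against 4.87% and 6.58% of all genes. By adjusted p alone, all 10 passed in that fit, 7 upward and 3 downward, against 23.3% and 25.0% of all genes. The median log2 fold change over the 10 genes was 0.46 with all 6 libraries and 0.62 without control replicate 2, while that of all genes was -0.0033 and 0.015.

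**Figure D1:**
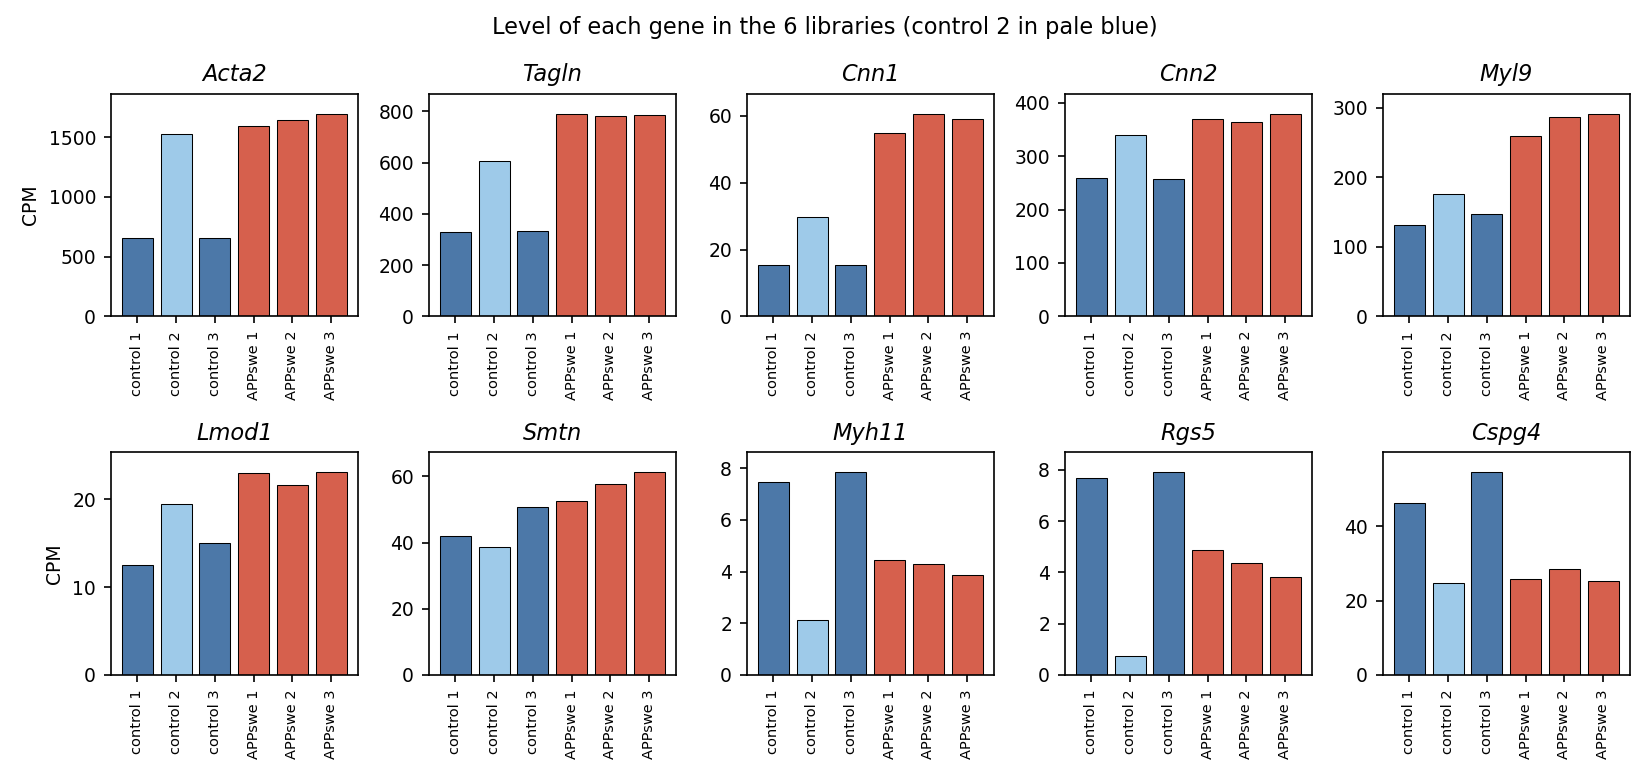
Level of each of the 10 genes in CPM (bar height, axes from 0 and different for each gene) in the 3 control libraries (blue, replicate 2 pale) and the 3 APPswe libraries (red). Acta2 to Smtn are higher in all 3 APPswe libraries than in any control library, while Myh11, Rgs5 and Cspg4 are highest in control replicates 1 and 3.

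Acta2, smooth muscle α-actin, lies on chromosome 19 (GRCm38, 34240336 to 34255585, minus strand). It was counted at 659, 1524 and 659 CPM in control replicates 1, 2 and 3 and at 1591, 1646 and 1696 CPM in the APPswe libraries. Control replicate 2 was thus 2.31 times the mean of the other controls and close to the APPswe libraries. The log2 fold change was 0.80 (SE 0.33, adjusted p = 0.131 by edgeR) with all 6 libraries and 1.32 (SE 0.058, adjusted p = 3.5e-08) without control replicate 2.

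Tagln (chromosome 9, 45929628 to 45936058, minus strand) encodes transgelin, an actin-bundling protein of smooth muscle. Its levels were 328, 606 and 333 CPM in control and 791, 781 and 784 CPM in APPswe libraries. The groups did not overlap, and control replicate 2 again lay between the other controls and APPswe. The difference was 0.90 on the log2 scale (SE 0.24, adjusted p = 0.0406 by edgeR) and 1.25 (SE 0.057, adjusted p = 4.5e-08) without that library. The adjusted p was above the threshold when any other single library was left out (0.103 to 0.125), with the replicate block (0.0544) and with the name style as a covariate (0.0619). Exons of antisense gene Gm48529 cover 62.4% of the exon bases of Tagln and those of Pcsk7, on the opposite strand, 5.43%. The strand setting of the counting is not given in the sources used here, so reads of these genes cannot be told apart, while Pcsk7 itself averaged 42.3 CPM (SD 2.38, n = 3) with and 43.6 CPM (SD 4.85, n = 3) without the transgene.

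Cnn1, calponin 1, a binder of actin and tropomyosin specific to smooth muscle among the calponins, rose most of the 10. It lies on chromosome 9 (22099221 to 22109221, plus strand). Control libraries held 15.2, 29.8 and 15.3 CPM, and APPswe libraries 54.9, 60.6 and 59.1 CPM, so that even control replicate 2 was well below every APPswe library. This was a log2 fold change of 1.53 (SE 0.27, adjusted p = 0.00967 by edgeR), or 2.89-fold, and of 1.93 (SE 0.086, adjusted p = 3.8e-08) without control replicate 2. It was called under each of the 20 other settings tried.

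Cnn2 (chromosome 10, 79988600 to 79995400, plus strand), a calponin also made outside muscle, was counted at 259, 339 and 257 CPM in control and 369, 364 and 379 CPM in APPswe libraries. Its groups did not overlap, but the gap from control replicate 2 was small. The log2 fold change was 0.38 (SE 0.12, adjusted p = 0.0662 by edgeR), and 0.53 (SE 0.058, adjusted p = 3.2e-05) without that library.

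Myl9, the regulatory light chain of smooth muscle and nonmuscle myosin (chromosome 2, 156775408 to 156781657, plus strand), was counted at 132, 177 and 147 CPM in control and 259, 287 and 292 CPM in APPswe libraries. Control replicate 2 lay nearer to the other controls here, at 1.27 times their mean. The log2 fold change was 0.88 (SE 0.12, adjusted p = 0.00461 by edgeR), just short of the fold limit of 1, and 1.01 (SE 0.077, adjusted p = 2.1e-06), just past it, without control replicate 2.

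Lmod1, the smooth muscle leiomodin, which nucleates actin filaments (chromosome 1, 135324813 to 135368065, plus strand), was counted at 12.5, 19.5 and 15.0 CPM in control and 23.0, 21.6 and 23.1 CPM in APPswe libraries. Smtn, smoothelin (chromosome 11, 3517522 to 3539292, minus strand), was counted at 41.9, 38.7 and 50.7 CPM in control and 52.5, 57.8 and 61.2 CPM in APPswe libraries. Both had groups that did not overlap, Smtn by the narrow step from 50.7 to 52.5 CPM. With edgeR their log2 fold changes were 0.53 (SE 0.17, adjusted p = 0.0675) for Lmod1 and 0.39 (SE 0.12, adjusted p = 0.0635) for Smtn. Without control replicate 2 they were 0.72 (adjusted p = 0.000249) and 0.31 (adjusted p = 0.0245). Smtn was the 1 gene of these 7 that was lower in control replicate 2 than in the other controls, at 0.836 times the mean of the other controls. Exons of Gm11946 and Gm11947, both on the opposite strand, cover 16.3% and 0.89% of its exon bases.

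Myh11, the smooth muscle myosin heavy chain (chromosome 16, 14194527 to 14292188, minus strand), was counted at 7.45, 2.14 and 7.84 CPM in control and 4.43, 4.29 and 3.88 CPM in APPswe libraries. The APPswe libraries therefore lay between control replicate 2 and the other controls, and the groups overlapped. With all 6 libraries the log2 fold change was -0.47 (SE 0.45, adjusted p = 0.489 by edgeR), and without control replicate 2 it was -0.86 (SE 0.14, adjusted p = 0.000419).

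Rgs5, a regulator of G protein signalling abundant in pericytes (chromosome 1, 169655501 to 169695813, plus strand), showed the widest spread among the controls. It was counted at 7.68, 0.731 and 7.90 CPM in control and 4.88, 4.35 and 3.82 CPM in APPswe libraries, and its 13 counts in control replicate 2 were 0.0938 times the level in the other controls. The log2 fold change was -0.32 (SE 0.71, adjusted p = 0.778 by edgeR) and -0.84 (SE 0.14, adjusted p = 0.000732) without that library. Its sign was not stable: the log2 fold change was 0.059 with the replicate block and 0.23 on log2(FPKM + 0.1).

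Cspg4, the proteoglycan NG2 of the pericyte surface (chromosome 9, 56865104 to 56899870, plus strand), was counted at 46.2, 24.7 and 54.5 CPM in control and 25.7, 28.5 and 25.3 CPM in APPswe libraries. Control replicate 2 lay just below the APPswe libraries and the other controls well above them. The log2 fold change was -0.66 (SE 0.27, adjusted p = 0.129 by edgeR), and -0.92 (SE 0.094, adjusted p = 1.7e-05) without control replicate 2. Neither Myh11, Rgs5 nor Cspg4 passed the fold limit in either fit.

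**Figure D2:**
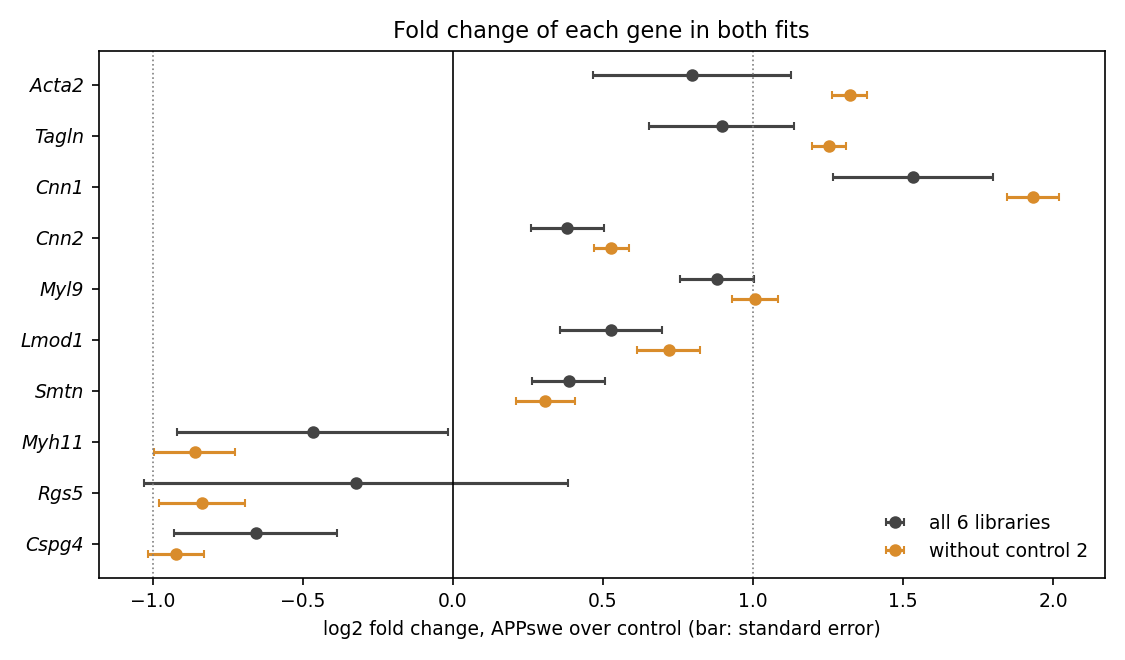
Log2 fold change of APPswe over control (x axis) for each gene, with its standard error as the bar, with all 6 libraries (dark) and without control replicate 2 (orange). Dotted lines mark the fold limit of 1 in both directions; Cnn1 lies past it in both fits, and Acta2, Tagln and Myl9 only without control replicate 2.

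Markers of other cells were set beside these values. In bulk samples, fewer cells of a type and less RNA per cell cannot be told apart. Over 10 endothelial markers the summed level was 269, 84.0 and 288 CPM in control and 28.5, 28.8 and 31.1 CPM in APPswe libraries. The endothelial adhesion gene Pecam1 had 827, 1 and 895 counts in control and 31, 43 and 54 in APPswe libraries. Myh11, Rgs5 and Cspg4 had the same order of libraries but smaller differences. Without control replicate 2 their log2 fold changes were -0.86, -0.84 and -0.92, against -4.36 for Pecam1. The order was not particular to endothelial genes: control replicate 2 was also the lowest library for 8 of 12 osteoblast and 7 of 13 stromal markers. It was above both other controls for 4 and 5 of them. Of the 10 endothelial markers, 8 were highest in control replicates 1 and 3, and 4 were at 3 counts or fewer in control replicate 2. The other 2, Vwf and Kdr, were highest in control replicate 2, at 55.0 and 25.5 CPM, and make up most of its sum. Their part in the values of Myh11, Rgs5 and Cspg4 was not tested.

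**Figure D3:**
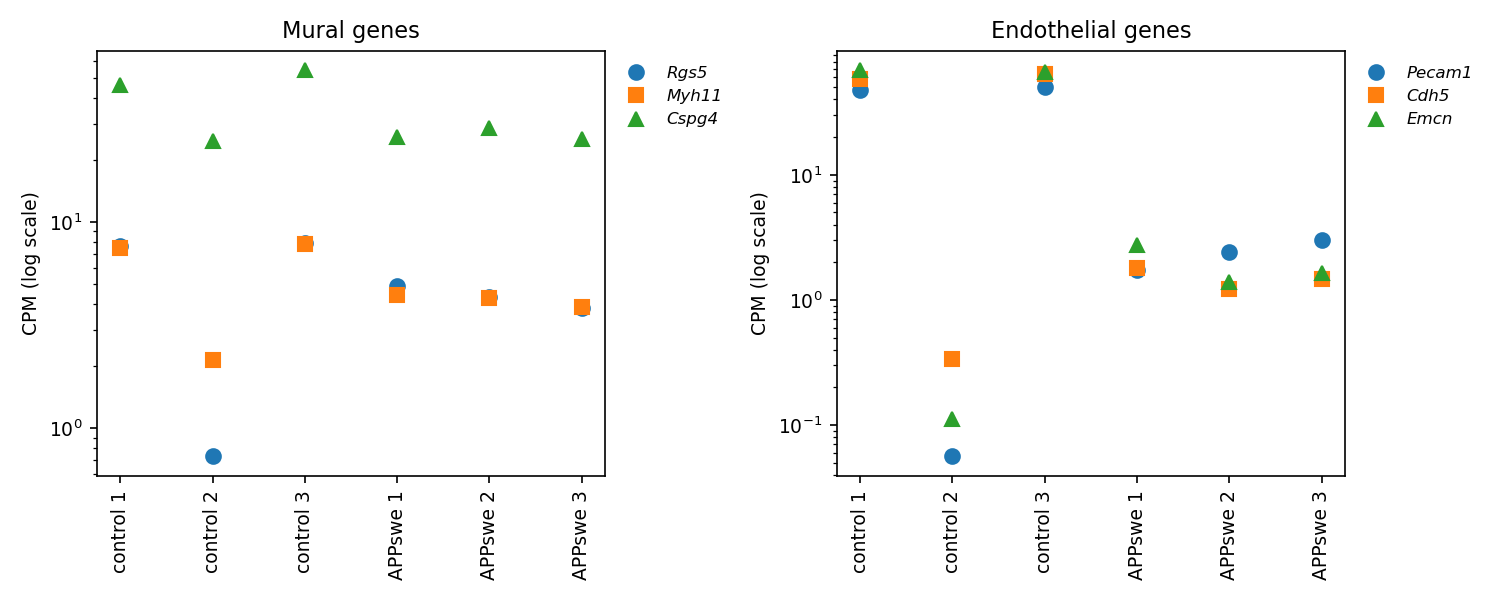
Levels in CPM (log scale) of the mural genes Rgs5, Myh11 and Cspg4 and of the endothelial genes Pecam1, Cdh5 and Emcn in each library. In both panels control replicates 1 and 3 are highest; control replicate 2 is lowest for every gene, and its Pecam1 value rests on 1 count.

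Over 13 stromal markers the summed level was 6080, 4890 and 6195 CPM in control and 12077, 12169 and 12025 CPM in APPswe libraries, and 0 of the 13 were at 3 counts or fewer in any library. Control replicate 2 was the lowest in this sum but not in every marker: 5 of the 13 were higher there than in both other controls, among them Fbn1 (686 against 312 and 339 CPM), Col5a1 (865 against 575 and 641 CPM) and Pdgfra (89.0 against 66.6 and 65.3 CPM), and 7 were the lowest of all libraries. With all 6 libraries 6 of the 13 were called higher and 0 lower, beside 3.74% and 3.60% of all genes. Without control replicate 2 the calls were 6 higher and 1 lower, beside 4.87% and 6.58%. The marker called lower was Dcn, with a log2 fold change of -1.08. Lum, at -0.83, also passed the adjusted p threshold downward in that fit. The 13 macrophage markers summed to 22795, 18997 and 24268 CPM in control and to 13266, 13960 and 14054 CPM in APPswe libraries. Lyz2 made the largest part, at 14794, 9772 and 16084 CPM in control and 7148, 7840 and 7879 CPM in APPswe libraries. Control replicate 2 exceeded both other controls for Csf1r, Adgre1, Cd14, Fcgr1, Itgam, Ctss and Ptprc, and was below both for the rest. Log2 fold changes with all 6 libraries were smallest in size for Csf1r (-0.074) and Ptprc (-0.18), and -0.83 for Lyz2. Without control replicate 2 they were 0.23, 0.036 and -1.02. The 6 osteoclast markers summed to 221, 143 and 213 CPM in control and to 528, 533 and 522 CPM in APPswe libraries. Of 5 tested, 3 were called higher and 0 lower with all 6 libraries, beside 3.74% and 3.60% of all genes. Ctsk averaged 181 CPM in control and 309 CPM in APPswe libraries, and Acp5 5.90 and 200 CPM. The part of the stromal, macrophage and osteoclast markers in the values of the 7 contractile genes was not tested.

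The close relatives of these genes were compared next, since they separate smooth muscle, striated muscle and general forms of the same protein. Actg2, the other smooth muscle actin, was counted at 39.6, 40.1 and 42.9 CPM in control and 97.3, 101 and 99.3 CPM in APPswe libraries. Control replicate 2 did not stand apart here, and Actg2 was called higher with a log2 fold change of 1.28 (SE 0.070, adjusted p = 0.000311 by edgeR) and 1.27 without that library. It thus passed the call rule with all 6 libraries, which Acta2 did not.

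Striated actins were low in control and showed far larger ratios. Acta1, skeletal muscle actin, was counted at 0.693, 4.05 and 0.847 CPM in control and 44.1, 45.4 and 45.5 CPM in APPswe libraries, which gave a log2 fold change of 4.58 (SE 0.58, adjusted p = 0.00336 by edgeR), and of 5.86 without control replicate 2. Actc1, cardiac actin, had 1, 10 and 1 counts in control and 187, 184 and 191 in APPswe libraries, which gave a log2 fold change of 5.49 (SE 0.60, adjusted p = 0.00194). With that library left out its control counts were 2 in all, and the ratio of counts was 184 with an exact 95% counting interval of 50.6 to 1521. For both, control replicate 2 was the highest control library, at 5.26 and 9.85 times the mean of the others. Of the nonmuscle actins, Actb had a log2 fold change of 0.44 (adjusted p = 0.0156) and Actg1 of 0.36 (adjusted p = 0.168), and 0.51 and 0.58 without control replicate 2.

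As a share of the reads of the 4 muscle actins, Acta1 and Actc1 together made 0.107%, 0.294% and 0.128% in the control libraries, with exact (Clopper-Pearson) 95% intervals of 0.0572 to 0.184%, 0.234 to 0.365% and 0.0734 to 0.208%. In APPswe libraries the share was 3.13%, 3.09% and 3.03%, with intervals of 2.94 to 3.33%, 2.90 to 3.28% and 2.85 to 3.23%. The intervals cover counting error only. The means were 0.177 ± 0.102% (SD, n = 3) and 3.08 ± 0.0483% (SD, n = 3), and the groups did not overlap. Acta2 and Actg2 therefore still made nearly all of the muscle actin reads in APPswe libraries. Among the reads of all 6 actin genes, Acta2 alone made 12.8%, 20.7% and 12.8% in control and 19.6%, 19.7% and 20.3% in APPswe libraries, where control replicate 2 was the highest.

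The leiomodins split in the same way. Lmod2, of cardiac and skeletal muscle, had 0, 3 and 0 counts in control and 32, 13 and 17 in APPswe libraries, a ratio of 20.4 with an exact 95% counting interval of 6.66 to 101. It was at least 6.76-fold higher without control replicate 2, taking 3 counts per library as the floor. Lmod3, of skeletal muscle, had 2, 4 and 1 counts in control and 44, 37 and 37 in APPswe libraries, with a log2 fold change of 3.99 (adjusted p = 0.00163 by edgeR). The ratio of its counts without control replicate 2 was 25.7, with a counting interval of 8.59 to 126. On the length-corrected scale Lmod1 averaged 4.15 and 6.28 FPKM in control and APPswe libraries, Lmod2 0.033 and 0.697 FPKM and Lmod3 0.070 and 1.21 FPKM, and Lmod1 was the 1 leiomodin not called.

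Among the general forms with all 6 libraries, Cnn3 had a log2 fold change of 0.39 (adjusted p = 0.0644) and Tagln2 of 0.10 (adjusted p = 0.677). The nonmuscle myosins Myh9 and Myh10 had -0.30 (adjusted p = 0.305) and 0.10 (adjusted p = 0.618). The nonmuscle light chains Myl12a and Myl12b had -0.18 and -0.11, neither past the threshold, and Myl6 had 0.33 (adjusted p = 0.0382). The tropomyosins Tpm1 and Tpm2, which lie along actin in muscle, had 0.86 (adjusted p = 0.00861) and 0.85 (adjusted p = 0.0274), while the widely made Tpm3 and Tpm4 had 0.079 (adjusted p = 0.672) and 0.37 (adjusted p = 0.0566). Tpm1 and Tpm2 were at 1.04 and 1.13 without control replicate 2 and passed the call rule. In that fit, with the adjusted p by edgeR in brackets, Cnn3 was at 0.53 (0.000114) and Tagln2 at 0.31 (0.00157). Tpm3 was at 0.22 (0.0118), Tpm4 at 0.47 (0.00037), Myl6 at 0.35 (0.00269) and Myh10 at 0.26 (0.0194). Myl12a and Myl12b were lower in APPswe, at -0.24 (0.00565) and -0.32 (0.00205). Myh9, at -0.058 (0.632), did not pass the adjusted p threshold. None of these general forms passed the fold limit. The differences between relatives were not themselves tested. Exact sequence shared with protein-coding transcripts of other genes is small for the 10 genes. Of their stretches of 50 bases, 0.352% of those of Acta2 also occur in Actg1 and 0.4% of those of Myh11 in Myh9 or Myh10. For the other 8 genes, 0 stretches occur in such a transcript. Noncoding transcripts and the opposite strand were not searched.

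**Figure D4:**
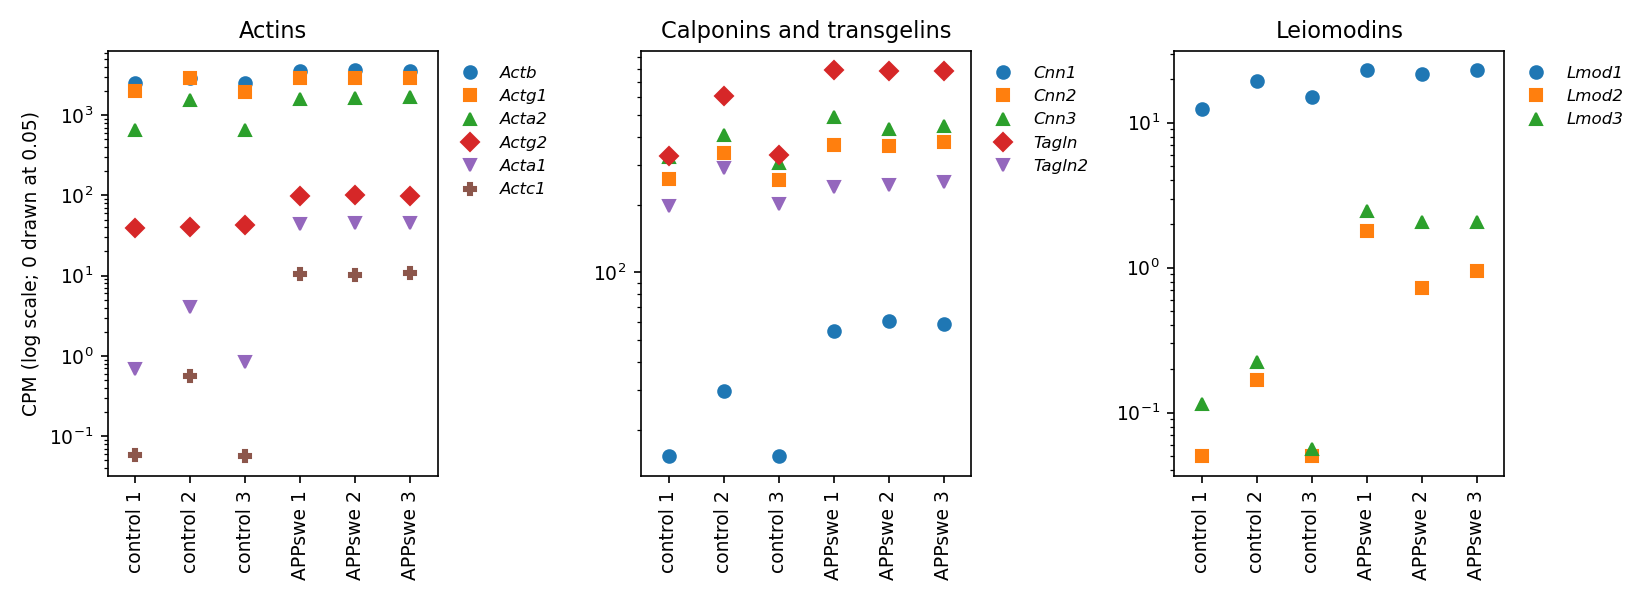
Levels in CPM (log scale, a value of 0 drawn at 0.05) of the actins, of the calponins and transgelins, and of the leiomodins in each library. Acta1, Actc1, Lmod2 and Lmod3 step up from control to APPswe by more than Acta2, Actg2 and Lmod1.

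Striated muscle genes gave the contrast. Of 58 listed, 48 were tested and 42 were called higher and 0 lower with all 6 libraries, beside 3.74% and 3.60% of all genes. Of the 10 genes above, 1 was called higher and 0 lower. Their median log2 fold change was 4.21, and 4.17 with Smpx, which had 0 counts in every control library, set at its bound. Fold changes of 41 of the 48 exceeded that of Cnn1. Since many of these genes passed the filter through the APPswe libraries alone, the count is a description. Among the 12 with at least 10 counts in every library, 8 were called higher, with a median of 2.01. Without control replicate 2, 45 of 48 were called higher and 0 lower, beside 4.87% and 6.58% of all genes. The median was then 5.17, or 4.31 with the 6 genes without control counts at their bound.

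Summed over the 58 genes, striated muscle genes stood at 73.7, 72.9 and 79.6 CPM in control and at 485, 474 and 477 CPM in APPswe libraries. The sums did not overlap between the groups. Smpx, a small protein of the striated sarcomere, had 30, 27 and 31 counts in APPswe libraries and was at least 9.64-fold higher, taking 3 counts per library as the floor. Myh7, slow myosin, had 0, 8 and 0 counts in control and 275, 273 and 280 in APPswe libraries (log2 fold change 6.61, adjusted p = 0.0020 by edgeR), and was at least 90.2-fold higher without control replicate 2. Ttn, titin, had 3, 16 and 4 counts in control and 508, 438 and 431 in APPswe libraries (log2 fold change 5.86, adjusted p = 0.000811, and 6.96 without control replicate 2). The 8 myogenic markers summed to 1.44, 2.70 and 1.30 CPM in control and to 34.6, 37.3 and 38.7 CPM in APPswe libraries, and their part in these values was not tested. Des, which is also in the list of other smooth muscle genes below, made the largest part of each sum. It was at 1.27, 1.97 and 1.13 CPM in control and 17.8, 18.8 and 19.1 CPM in APPswe libraries. Myog averaged 0.189 CPM in control and 9.41 CPM in APPswe libraries, while Myf5, Myf6 and Pax7 had at most 4 counts in any library.

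**Figure D5:**
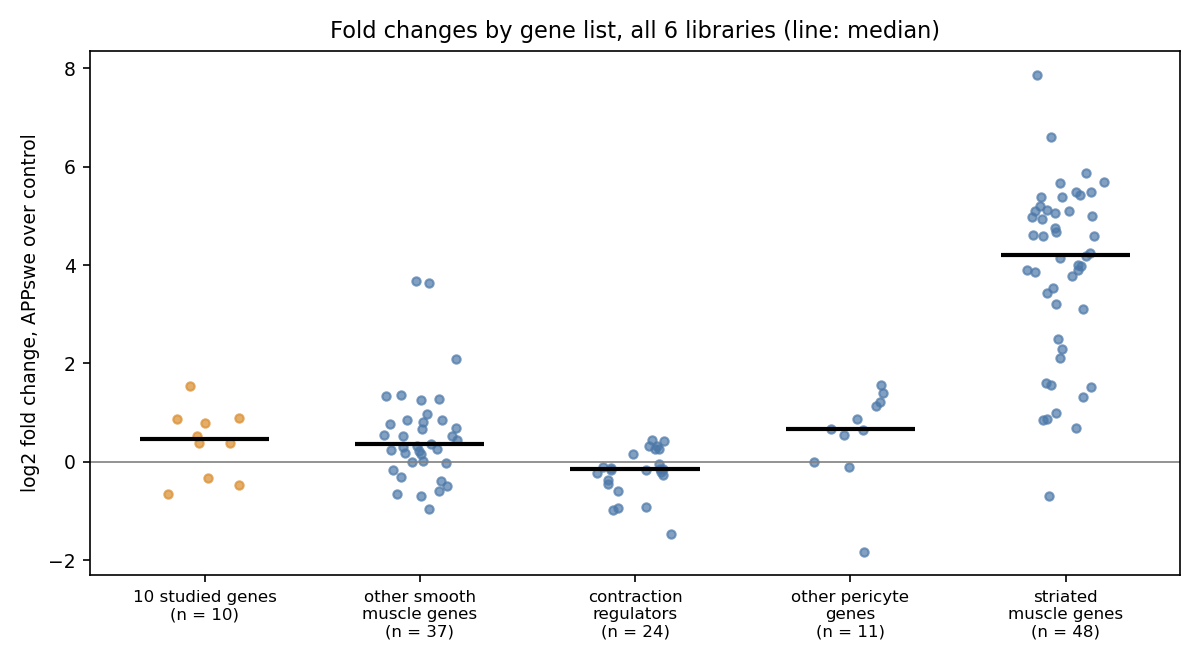
Log2 fold change of APPswe over control with all 6 libraries for each tested gene (points; horizontal spread only separates them) in the 10 genes and in 4 lists, with the median of each as a line. The 10 genes lie between -0.66 and 1.53, and 41 of the 48 striated muscle genes lie above them; the highest point, Smpx, has 0 control counts and is drawn at its fitted value.

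Other smooth muscle genes behaved as a mixed list. Of 41 listed, 37 were tested, 7 were called higher and 0 lower, with a median log2 fold change of 0.36, beside 3.74% and 3.60% of all genes called. By adjusted p alone 17 passed upward and 0 downward, beside 10.5% and 12.0%. Without control replicate 2 the calls were 9 higher and 3 lower of 38, beside 4.87% and 6.58%. Des, desmin, the intermediate filament of all muscle types, was counted at 1.27, 1.97 and 1.13 CPM in control and 17.8, 18.8 and 19.1 CPM in APPswe libraries (log2 fold change 3.67, SE 0.22, adjusted p = 0.000407 by edgeR). Pdlim3, which binds actinin at the Z disc, had 1, 2 and 6 counts in control and 42, 41 and 35 in APPswe libraries (log2 fold change 3.64, adjusted p = 0.00383). Both are also made in striated muscle, and their log2 fold changes were 3.95 and 3.42 without control replicate 2. Csrp2, a LIM protein of smooth muscle, was counted at 19.9, 16.2 and 18.5 CPM in control and 79.6, 75.5 and 77.0 CPM in APPswe libraries (log2 fold change 2.09, SE 0.098, adjusted p = 0.000296), with 2.01 without control replicate 2, which was close to the other controls.

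The regulators of contraction, a list of serum response factor and its coactivators, TGF-β receptors and other factors, were counted in the same way. Of 25 in the table, 24 were tested, and 0 were called higher and 1 lower, with a median log2 fold change of -0.15, beside 3.74% and 3.60% of all genes called. By adjusted p alone 1 passed upward and 5 downward, beside 10.5% and 12.0%. Without control replicate 2, 0 of 25 were called higher and 3 lower, beside 4.87% and 6.58%. The gene called lower with all 6 libraries was Ankrd1, a target of the coactivators of stretch signalling, at 84.7, 44.8 and 77.7 CPM in control and 23.7, 24.5 and 26.5 CPM in APPswe libraries (log2 fold change -1.47, SE 0.23, adjusted p = 0.00705 by edgeR, and -1.70 without control replicate 2).

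Other pericyte genes gave no single direction. Of 18 listed, 11 were tested, 3 were called higher and 1 lower in both fits, with a median log2 fold change of 0.66 with all 6 libraries and of 0.26 without control replicate 2. All genes were called at 3.74% and 3.60% with all 6 libraries, and at 4.87% and 6.58% without control replicate 2. The 3 higher calls fell to 1 when any single APPswe library was left out and on log2(FPKM + 1), and to 2 with the replicate block. The genes called higher were Abcc9, the sulphonylurea receptor that pairs with the channel of Kcnj8, from 7, 6 and 7 counts to 22, 22 and 17 (log2 fold change 1.57, adjusted p = 0.0116 by edgeR), Rgs4 (1.40, adjusted p = 0.0134) and the transcription factor gene Ebf1 (1.14, adjusted p = 0.000874). They were at 1.50, 1.29 and 1.13 without control replicate 2. Anpep, an aminopeptidase also made by stromal and myeloid cells, was lower, at 600, 489 and 578 CPM in control and 160, 155 and 157 CPM in APPswe libraries (log2 fold change -1.82, SE 0.098, adjusted p = 0.000296, and -1.90 without control replicate 2).

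Genes whose profile over the 6 libraries was most like that of Acta2 were found by the root mean square difference of log2 CPM after centring each gene on its mean, among 12205 genes. The closest were Ahrr (0.0802), Adamts6 (0.108), Ifitm10 (0.113), Igfbp2 (0.113) and Col6a3 (0.115). Tagln came next (0.117), followed among the 10 genes by Myl9 (0.293), Lmod1 (0.310), Cnn1 (0.354), Cnn2 (0.378) and Smtn (0.560). Cspg4 (1.06), Myh11 (1.16) and Rgs5 (1.52) were far from it. The likeness to Acta2 includes the raised value in control replicate 2: Igfbp2, a binding protein of insulin-like growth factors, stood at 30.5, 66.9 and 31.9 CPM in control and 73.3, 89.9 and 90.2 CPM in APPswe libraries, and Col6a3, a chain of collagen VI, at 232, 497 and 271 CPM and at 592, 668 and 638 CPM.

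The library names follow 2 spelling styles, which split the deposited FPKM values by their blank cells: control replicates 1 and 2 and APPswe replicate 1 share one style and the other 3 libraries the other. This is a style of name and is not stated to be a batch. The names also differ in a letter: control replicate 2 is named Ctrl-S, while the names of the other libraries carry an L in its place. What these letters stand for is not stated in the sources used here. Within the first style the log2 ratio of APPswe over control was 0.54 for Acta2, 0.76 for Tagln, 1.29 for Cnn1, 0.75 for Myl9, -0.11 for Myh11, 0.21 for Rgs5 and -0.46 for Cspg4. Within the second style it was 1.34 for Acta2, 1.23 for Tagln, 1.97 for Cnn1, 0.98 for Myl9, -0.94 for Myh11, -0.95 for Rgs5 and -1.02 for Cspg4. Only Rgs5 of these changed sign between the styles, and the first style holds control replicate 2. Cnn2, Lmod1 and Smtn were 0.30, 0.53 and 0.38 in the first style and 0.53, 0.57 and 0.23 in the second.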

How the data were processed

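The deposited values are raw read counts for each gene, beside FPKM values that the authors computed and rounded, with blank cells taken as 0. Columns of log2 fold changes and p-values in the deposited table are the authors' own comparison and were not used. Libraries were made with a SMARTER mRNA kit and sequenced on DNBseq; the submitters' processing notes name GRCm38, and the aligner and counting tool are not given in the sources used here.

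Counts of all 17830 genes were tested in R 4.3.3 with edgeR 4.0.16: TMM scaling, filterByExpr (13484 genes kept, 13753 without control replicate 2) and the quasi-likelihood test of APPswe against control with no covariate, with Benjamini-Hochberg adjustment over all genes tested. The call rule required an adjusted p no higher than 0.05 and a log2 fold change no smaller than 1 in size. The standard error is the fold change over the square root of F. CPM values are TMM-scaled. Scripts were tested on simulated data. Alternatives were DESeq2 1.42.0, other scalings and filters, a replicate block, the name style as a covariate, each library left out, and limma 3.58.1 on log2(FPKM + 1) or log2(FPKM + 0.1) with a filter of 1 FPKM in at least 3 libraries; the combinations of another tool or scaling with leaving out control replicate 2 were chosen after seeing the data. Every library differed from each of the others beyond sampling noise over 15 pairs, but to unlike degrees. The chi-square per degree of freedom was lowest, at 1.58, for APPswe replicates 2 and 3. It was 7.35 and 7.85 for the other APPswe pairs and 6.16 for control replicates 1 and 3. Control replicate 2 against the other controls gave 75.3 and 79.9. The standard errors and p-values without control replicate 2 rest only on the spread of the close pairs, which may be technical.

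Groups and replicate numbers came from the sample labels. The 10 genes, the lists and the markers were chosen with earlier results of these data known. Genes named besides the 10 are their relatives, up to 3 called genes with the largest change in each direction from each list, the 5 genes nearest in profile to Acta2 among those whose mean log2 CPM reached 1, and markers. Myocd, Kcnj8, Higd1b, Pdgfrb, Ndufa4l2, Notch3, Pcsk7 and App were named after their values were seen. Positions come from RefSeq and exon overlaps from GENCODE, both on GRCm38.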

Additional observations from a re-analysis of the deposited data

How the results depend on the processing

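Of the 10 genes, 1 was called higher with all 6 libraries. Leaving out each library in turn gave 1 to 4, the 4 without control replicate 2, and without that library DESeq2, no TMM and log2(FPKM + 1) also gave 4 each and the name style as a covariate 3. Limma with all libraries on log2(FPKM + 1), on log2(FPKM + 0.1) and without a filter gave 2 each, and adjusted p alone gave 3. No setting with the fold limit called any of the 10 lower. Cnn1 was called in all 20 alternatives, with log2 fold changes of 1.37 to 2.01. Acta2 ranged from 0.59 to 1.43 and was called in 5 settings, Tagln from 0.74 to 1.33 in 8, and Myl9 from 0.78 to 1.08 in 4. Leaving out any other library never gave a call for Acta2.

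Rgs5 changed sign with the replicate block (0.059), without control replicate 1 (0.0075), without control replicate 3 (0.045) and on log2(FPKM + 0.1) (0.23), and its range over left-out libraries was -0.84 to 0.045; none of the reversed values passed the threshold and the cause was not tested. The other 9 genes kept their direction in all alternatives.

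Other smooth muscle genes called higher were 17 by adjusted p alone against 7. Those called lower were 0 with all libraries, 0 to 3 with each library left out, and, without control replicate 2, 3 with the name style, 2 with DESeq2, 2 with no TMM and 1 on log2(FPKM + 1). Striated muscle genes called higher fell from 42 to 8 when at least 10 counts in every library were required, since 12 genes were then tested. The control share of striated actin reads was 0.0315% over all 6 actin genes, and the APPswe share was 0.670% over all 6 and 3.88% on FPKM. Other pericyte genes called higher were 3, and 1 when any single APPswe library was left out. The number was also 1 on log2(FPKM + 1), with or without its filter, and on log2(FPKM + 1) without control replicate 2. Of all called genes 50.9% were higher in the main fit. The share was 63.9% on log2(FPKM + 1), 64.2% on log2(FPKM + 1) without its filter and 63.5% on log2(FPKM + 0.1).

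Deviations of same-numbered libraries from their group means correlated at 0.074, -0.036 and 0.16 over 13484 genes. The control mean includes control replicate 2, which stood apart, so these values cannot decide whether replicate numbers pair the samples. With the replicate block 384 genes were called higher and 324 lower over all genes, against 504 and 486, and 1 of the 10, Cnn1, was called.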
